A study of Homo sapiens with 22 samples.

Results

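CTCF is a zinc-finger protein that binds a long sequence motif, blocks the movement of the ring-shaped cohesin complex along DNA and so anchors chromatin loops and domain borders. It is found in nearly all cell types, and many of its sites are occupied in most of them. The remainder differ between cell types, and DNA methylation of a CG inside the motif and the accessibility of the site are known to go with such differences. In ATAC-seq the transposase Tn5 cuts accessible DNA, so that an ATAC region marks open chromatin.

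The regions described here were the CTCF regions of a stem cell list that lay in chromatin open in stem cells and not in fibroblasts. A region was a member when it belonged to the hESC-named CTCF list, overlapped no HFFc6 CTCF region, overlapped an H1 ATAC region by at least 1 bp and overlapped no HFFc6 ATAC region. Of 104785 regions of the hESC-named CTCF list on chromosomes 1 to 22 and X, 61483 overlapped no HFFc6 CTCF region. An H1 ATAC region lay over 39762 of these, and 32910 of them overlapped no HFFc6 ATAC region. The 32910 members were 31.4% of the list (95% Wilson interval 31.1 to 31.7%, which covers counting error only). Members were thus chosen by their presence or absence in all 4 peak lists, and those overlaps describe them and are no result.

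The series held 22 libraries in 6 groups from 2 established human cell lines, with no treatment in the labels. H1 is an embryonic stem cell line and had 2 ATAC libraries. HFFc6 is a subclone, c6, of foreskin fibroblasts immortalised with telomerase, so it stands for 1 clone of a cultured line. It had 8 ATAC libraries and 2 CTCF libraries made by Cut&Tag, in which an antibody directs Tn5 to the protein. The titles of the Cut&Tag libraries begin with HFF1 while the cell line label is HFFc6. The hESC-named CTCF list is not described by any sample label used here, so that its cell line, assay and libraries are not known here. Each list was 1 call over its group with no values per library, so no replicate spread could be computed, no test was made, and all differences below are differences between lists. The other 10 libraries (SMC1, H3K4me3, H3K27ac) were not used here.

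The lists differed in length and width. The hESC-named CTCF list had a median width of 496 bp, and the 82297 HFFc6 CTCF regions had one of 696 bp. The 189982 H1 ATAC regions had a median width of 301 bp and the 155746 HFFc6 ATAC regions one of 707 bp. The read depth behind each list is unknown. As a check of the line labels, the ends of marker genes were compared between the ATAC lists, a gene end being the 1 kb on either side of the first or last base of a gene. Of 28 pluripotency genes, 13 had open ends in H1 alone and 1 in HFFc6 alone. Of 26 fibroblast matrix genes, 0 had open ends in H1 alone, 2 in HFFc6 alone and 23 in both. Over all 19970 protein-coding genes, 1655 had open ends in H1 alone, 1108 in HFFc6 alone and 14081 in both. The 2 fibroblast matrix genes were thus near the share of all genes and say little about the HFFc6 label. All 15 housekeeping genes had them in both lists.

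Promoters overlapped by members are shown first, for their sequence. RefSeq promoters, from 250 bases before to 50 bases after a start (assembly GRCh38.p14), were searched on both strands for the 12-base core of the CTCF motif, written as CCA, 2 bases of any kind, AG, 2 bases of any kind and GGC. The 5 promoters with a match and the highest CTCF fold enrichment of the overlapping member are shown as 120 bases each, read 5′ to 3′ on the strand of the gene, with the match in capitals. Fold enrichment is the authors' ratio of signal at the peak summit over background.
LOC107987143, lncRNA, chr9:136770103-136770222, minus strand: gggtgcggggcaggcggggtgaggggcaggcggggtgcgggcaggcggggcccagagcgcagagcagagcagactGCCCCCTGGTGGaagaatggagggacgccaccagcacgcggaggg
MACC1, chr7:20217490-20217609, minus strand: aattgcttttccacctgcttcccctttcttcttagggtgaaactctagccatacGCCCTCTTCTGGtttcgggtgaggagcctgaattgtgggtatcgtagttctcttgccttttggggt
MYO5B, chr18:50195204-50195323, minus strand: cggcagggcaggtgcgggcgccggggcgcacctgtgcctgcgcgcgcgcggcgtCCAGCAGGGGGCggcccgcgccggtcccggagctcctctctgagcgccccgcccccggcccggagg
LOC105371274, lncRNA, chr16:54633975-54634094, plus strand: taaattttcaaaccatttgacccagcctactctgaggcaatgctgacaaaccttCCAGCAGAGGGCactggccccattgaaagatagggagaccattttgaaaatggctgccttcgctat
GSTA2, chr6:52763540-52763659, minus strand: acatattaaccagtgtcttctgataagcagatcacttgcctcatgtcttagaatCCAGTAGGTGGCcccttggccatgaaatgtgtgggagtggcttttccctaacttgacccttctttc
The promoter of highest member fold enrichment without a match follows, for contrast.
LINC02930, lncRNA, chr10:120634697-120634816, plus strand: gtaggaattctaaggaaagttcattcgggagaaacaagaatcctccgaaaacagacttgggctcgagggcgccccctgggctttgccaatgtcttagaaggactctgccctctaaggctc

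The member over the LOC107987143 promoter ended at base 136770162, within the printed stretch, and included the match. It had a CTCF fold enrichment of 27.5, and the match lay 141 bp from the CTCF summit. At MACC1, a gene known for its part in cell motility, the fold enrichment was 21.4 and the match lay 11 bp from the summit. MYO5B encodes a myosin that moves vesicles in epithelial cells, and its member had a fold enrichment of 17.8 with the match 56 bp from the summit. LOC105371274 stood at 16.2 and GSTA2, a glutathione transferase gene, at 14.7, with matches 95 and 43 bp from their summits. These 5 promoters differed in CG content, from 47 CG dinucleotides in 300 bases at MYO5B to 1 at GSTA2. The LINC02930 member, at 28.4, was as strong as that over LOC107987143.

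A match to the core was uncommon in promoters under members. Members overlapped 1071 promoters of 969 genes (727 promoters of protein-coding and 344 of lncRNA genes), and 35 of them held the core, 3.27% (2.36 to 4.51%). The share over all 34961 promoters of the table was 2.41%. Promoters under CTCF regions shared with the HFFc6 CTCF list and open in both lines stood at 3.69% (3.37 to 4.03%). Those under shared regions open only in H1 stood at 4.44% (2.49 to 7.77%). Under stem-list-only regions the core share was 1.67% (0.98 to 2.84%) when open in both lines and 4.49% (2.19 to 8.97%) when open in neither. A looser core, in which the A of CCA may be any base and which includes all matches of the first, was present in 13.3% (11.4 to 15.4%) under members and in 10.6% of all promoters. Under shared regions open only in H1 it was present in 21.8% (17.1 to 27.3%), and under shared regions open in both lines in 16.1% (15.5 to 16.7%). Among the 198 promoters under members with a fold enrichment of at least 10, the looser core was present in 19.7% (14.8 to 25.8%), and at the same limit it was present in 19.4% (18.4 to 20.5%) under shared regions open in both lines and 24.1% (17.8 to 31.8%) under shared regions open only in H1. It was present in 11.7% of 111 promoters under stem-list-only regions open in both lines and in 12.5% of 16 under those open in neither. A match is a description of the letters in this window, and members away from promoters could not be searched.

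The share of matches with a CG dinucleotide differed between classes. Of 151 looser matches in member promoters, 72.8% (65.3 to 79.3%) held a CG within the match or within 3 bases of it. The share was 88.0% (86.6 to 89.3%) of 2224 matches under shared regions open in both lines, 83.1% (73.7 to 89.7%) under stem-list-only regions open in both lines and 79.4% (67.8 to 87.5%) under shared regions open only in H1. It was 70.8% (50.8 to 85.1%) under stem-list-only regions open in neither line and 79.3% over all promoters, and of these intervals only that of shared regions open in both lines did not overlap the interval of members. The promoters differed in the same direction as a whole, with a median of 13 CG dinucleotides under members and 26 under shared regions open in both lines. The median over all promoters was 14. Whether the difference at the matches goes beyond that of the whole promoters was not tested.

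CTCF fold enrichment of members was intermediate. The median was 5.89, with quartiles of 4.12 and 9.43 and a range from 1.77 to 46.9. Regions of the hESC-named list absent from HFFc6 CTCF and open in both lines had a median of 5.60, and those open in neither line one of 4.12. Regions shared with HFFc6 CTCF and open only in H1 had a median of 14.6. The order of members below shared regions and above those open in neither line held on 23 of 23 chromosomes. Members exceeded stem-list-only regions open in both lines on 18 of 23 chromosomes, a difference that was small beside the quartiles.

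The share of well-supported calls gave the same order. A −log10 q of at least 10 was reached by 52.5% of members (52.0 to 53.1%), against 60.5% of all hESC-named CTCF regions. It was 52.3% for stem-list-only regions open in both lines, 29.9% for those open in neither and 92.2% for shared regions open only in H1. A fold enrichment of at least 20 was reached by 800 members, 2.43% (2.27 to 2.60%), against 18.5% (17.4 to 19.6%) of shared regions open only in H1. Absence from the HFFc6 CTCF list is part of the rule, and a weak region may be missed by a second list more easily than a strong one, which cannot be told apart here from a difference between the lines.

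**Figure D1:**
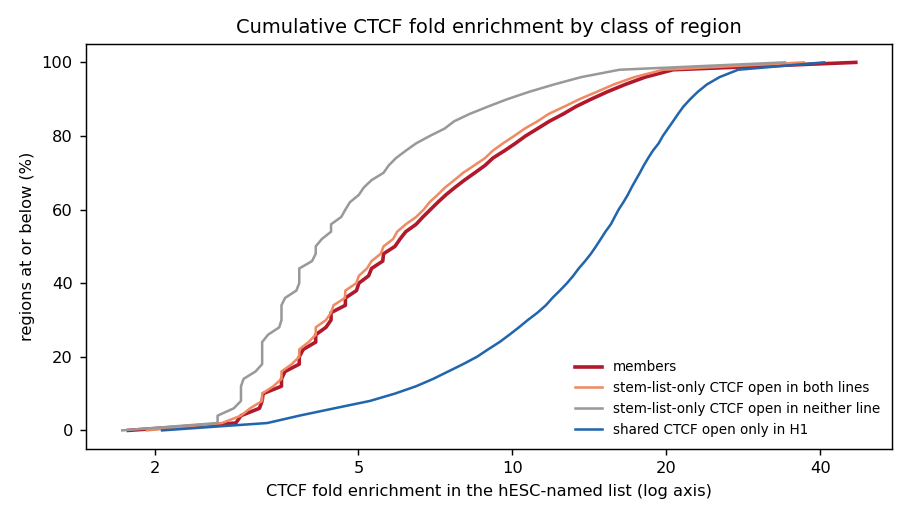
Cumulative share of regions (percent) by CTCF fold enrichment (log axis), 1 line per class of the hESC-named list. The line of the members lies close to that of stem-list-only regions open in both lines (medians 5.89 and 5.60), right of those open in neither line (4.12) and left of shared regions open only in H1 (14.6).

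Ordered by fold enrichment, the members were spread over the whole list. In 5 equal groups from the weakest to the strongest, they made up 32.3, 40.3, 40.6, 29.8 and 14.0% of regions. In the strongest group, with fold enrichments of at least 14.8, 59.4% of regions were shared and open in both lines. Among stem-list-only regions alone the share of members went the other way, from 38.6% in the weakest group to 71.5% in the strongest. The share open in neither line fell with strength. Of the stem-list-only regions open in H1, members were a nearly constant part, 81.9, 82.1, 83.0, 83.3 and 84.9% over the 5 groups.

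**Figure D2:**
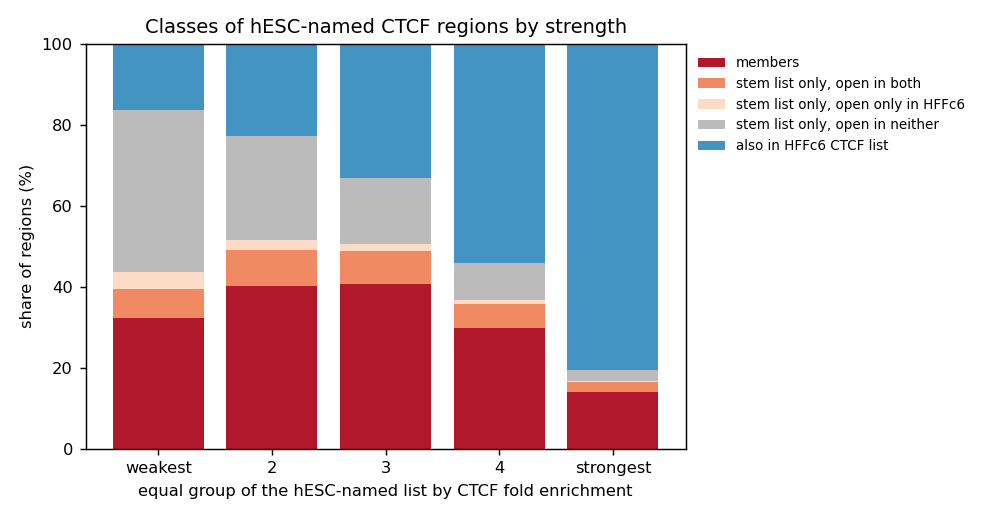
Share (percent) of each class within 5 equal groups of the hESC-named CTCF list ordered by fold enrichment. Members (dark red) fall to 14.0% in the strongest group, while the part also in the HFFc6 CTCF list (blue) grows.

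The member of highest fold enrichment, 46.9, lay at chr8:12466038-12466468 inside the lncRNA gene FAM86B2-DT and over the pseudogene ENPP7P6, 30048 bp from the nearest end of FAM86B2. FAM86B2 belongs to a family of near-identical copies, so that reads there may be split between copies. The next, at chr8:65450291-65450951, had a fold enrichment of 37.3, the highest −log10 q of the 10 strongest members (973) and an H1 ATAC fold enrichment of 23.6, and lay between genes with ARMC1 nearest. A member 48867 bp from PCDH8, a protocadherin gene of the nervous system and early mesoderm, reached 36.2.

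The other 7 had fold enrichments from 32.6 to 35.7 and were nearest to SOCS6, NDST3, ZNF648, PRDM7, TRDN, ELMO1 and KRTAP27-1. The member in ELMO1, whose product acts in cell migration, lay inside that gene at chr7:37284442-37285072. The member nearest to PRDM7, a relative of the meiotic factor PRDM9, lay inside the lncRNA gene FAM157C. The distance of these 10 to the nearest HFFc6 ATAC region ranged from 18051 bp at FAM86B2 to 490335 bp at KRTAP27-1, a hair keratin-associated protein gene. Of the 10, 0 were within 1 kb of a gene end, where 9.06% of all members lay, and 10 regions are too few to set against that share.

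CTCF summits of members sat close to the summits of the open region. The median distance between the CTCF summit and the H1 ATAC summit was 57 bp (quartiles 25 and 120), and 69.6% (69.1 to 70.1%) lay within 100 bp. Shared regions open only in H1 had the same median of 57 bp, and stem-list-only regions open in both lines one of 66 bp. The CTCF summit fell inside the H1 ATAC region for 28362 members, 86.2% (85.8 to 86.5%). In the weakest of the 5 groups by CTCF fold enrichment the median distance was 91 bp, and in the strongest pair of groups it was 44 and 50 bp. Across members the Spearman rho of CTCF with ATAC fold enrichment was 0.413 (n = 32910 regions, which share their libraries and are not independent). For stem-list-only regions open in both lines it was 0.414.

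**Figure D3:**
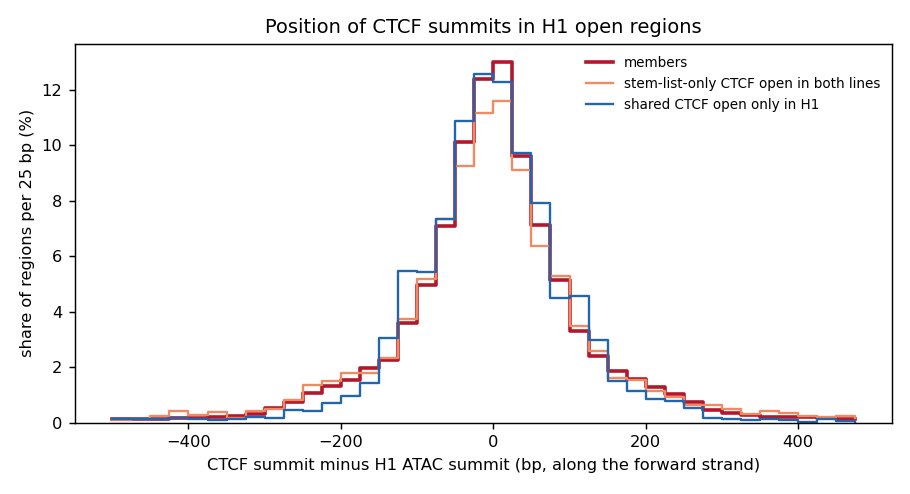
Share of regions (percent per 25 bp) by the position of the CTCF summit relative to the H1 ATAC summit (bp, forward strand), 1 line per class. All 3 classes centre on the ATAC summit, with 69.6% of members within 100 bp of it.

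Seen from the open chromatin, H1-only ATAC regions with a member were stronger than those without CTCF. Of 129540 H1 ATAC regions that overlapped no HFFc6 ATAC region, 33102 (25.6%) carried a member, and 90559 (69.9%) carried no hESC-named CTCF region. Median ATAC fold enrichment was 8.19 with a member and 4.47 with no hESC-named CTCF region. In 5 equal groups of H1-only ATAC regions, from the weakest to the strongest, 6.90, 9.92, 19.2, 34.9 and 56.9% carried a member. Among CTCF-bearing open regions those of the members were the weakest, with a median H1 ATAC fold enrichment of 8.26, against 8.56 for stem-list-only regions open in both lines, 9.10 for shared regions open only in H1 and 10.8 for shared regions open in both lines. Of the H1 ATAC regions best covered by each member, 126 lay under 2 members. For 402 members (1.22%) that ATAC region itself touched an HFFc6 ATAC region elsewhere along its length.

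Most members lay more than 1 kb from the nearest fibroblast region, though many had one within 10 kb. The median gap to the nearest HFFc6 CTCF region was 17501.5 bp and to the nearest HFFc6 ATAC region 7391.5 bp. Within 1 kb of an HFFc6 ATAC region lay 12.1% (11.7 to 12.4%) of members, and within 10 kb lay 56.6% (56.0 to 57.1%). For HFFc6 CTCF regions the share within 10 kb was 37.7% (37.2 to 38.3%). At the edge of the rule, 225 members lay at most 50 bp from an HFFc6 ATAC region, with a median CTCF fold enrichment of 4.42. The 276 regions kept out by an HFFc6 ATAC overlap of at most 50 bp had a median of 4.29. For HFFc6 CTCF, 45 members just inside stood at 4.94 and 75 regions just outside at 4.42. For the H1 ATAC overlap, the medians of 714 members just inside and 390 regions just outside were both 3.54.

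Members were rarer at gene ends than other CTCF regions of the list. At the ends of protein-coding and lncRNA genes (within 1 kb) lay 2981 members, 9.06% (8.75 to 9.37%), against 19.4% of all hESC-named CTCF regions. Stem-list-only regions open in both lines stood at 19.6% (18.7 to 20.6%), shared regions open only in H1 at 14.2% (13.2 to 15.2%) and stem-list-only regions open in neither line at 7.39% (7.03 to 7.76%). The share of members was below that of the list and below that of stem-list-only regions open in both lines on 23 of 23 chromosomes. It was above that of regions open in neither line on 21 of 23 and above that of shared regions open only in H1 on 0. Of the members, 53.9% lay inside genes away from their ends and 37.1% between genes.

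Stronger members lay between genes more often. That share went from 33.9% in the weakest of the 5 groups to 46.0% in the strongest, while the share at gene ends went from 10.7 to 6.72%. The opposite set, 28353 HFFc6 CTCF regions missing from the hESC-named list and lying in HFFc6-only open chromatin, had nearly the same share at gene ends, 8.86% (8.53 to 9.19%). It differed in the rest, with 63.7% inside genes and 27.4% between them. Counted by strand from gene starts alone, 4.73% of 31285 members lay within 1 kb of a start, chromosome 8 being left out because the promoter table used has no entries there. The most filled bin of 250 bp lay directly upstream of starts and held 505 members, against 239 directly downstream.

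The share of the list taken by members ranged over chromosomes from 21.2% on chromosome 19 to 38.4% on chromosome 18, with a median of 32.1%. Chromosome 19 is the most gene-dense human chromosome, and its members also had the highest share at gene ends, 18.7%. Among stem-list-only regions, members were 46.0% on the X chromosome, the lowest share, and 56.6% on chromosome 18, the highest. The median fold enrichment of members stayed between 5.60 and 6.48 on every chromosome.

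**Figure D4:**
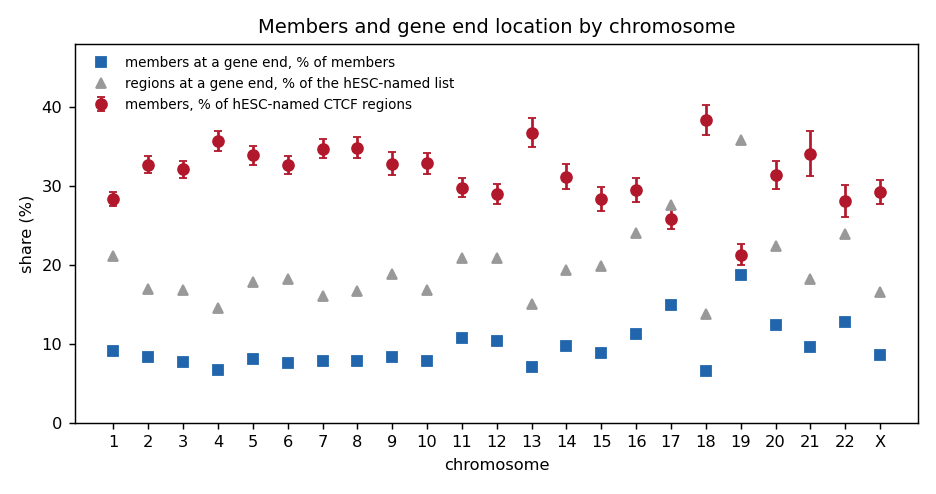
Per chromosome, the share of hESC-named CTCF regions that were members (red, with 95% Wilson intervals), the share of members at a gene end (blue) and the share of the whole list at a gene end (grey), all in percent. The blue squares lie below the grey triangles on every chromosome, and the red circles are lowest on chromosome 19.

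Members often lay next to one another along the genome. Another member lay within 10 kb of 26.3% of them (25.8 to 26.7%). After a member, the next region of the hESC-named list was again a member in 40.3% of cases (39.8 to 40.8%), against a member share of 31.4% in the whole list. It was a member in 35.2% of cases after a stem-list-only region open in neither line, in 30.8% after one open in both lines and in 22.7% after a shared region open in both lines. Members with no member directly before or after them in the list numbered 12670 (38.5%), and 14.96% of members stood in unbroken runs of 5 or more. The longest run, of 20 members over 1390 kb of chromosome 18, had CDH7, a cadherin gene, as its commonest nearest gene. A run of 18 lay by FAM135B on chromosome 8, and runs of 17 lay by CDH12 on chromosome 5 and SLC10A2 on chromosome 13.

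In windows of 1 Mb the median was 11 members and the highest 45, which were 47.4% of the 95 hESC-named CTCF regions there. That window, chr1:18000001-19000000, held 25 members nearest to IGSF21, an adhesion protein gene of synapses, and 9 nearest to PAX7, a transcription factor gene of neural crest and muscle. It held 3 regions of the opposite set. The next windows held 32 members each, 51.6% of 62 hESC-named CTCF regions on chromosome 17 and 64.0% of 50 on chromosome 6. They held 11 and 5 regions of the opposite set. One on chromosome 17 held 21 members nearest to SDK2, which encodes a synaptic adhesion protein, and one on chromosome 6 held 16 nearest to SMOC2, a matrix protein gene, and 10 nearest to DACT2, a regulator of Wnt signalling.

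Members were assigned to protein-coding genes by the nearest gene end. Of 19970 protein-coding genes, 9918 (49.7%) had a member, and 1530 genes (7.66%) held 50% of all members. Among the 10 genes with most members were PTPRD with 62, RBFOX1 with 57, CNTNAP2 with 50, AUTS2 with 45, CSMD1 and CSMD3 with 44 each, TENM2 and TENM3 with 40 each and CTNNA2 with 39. Most encode surface or adhesion proteins of neurons, while RBFOX1 encodes a splicing factor and AUTS2 a nuclear regulator. The 10 are among the longest human genes, with a median length of 1409 kb against 24.2 kb over all genes. Per 100 kb of gene the named ones held from 0.96 members in TENM3 to 2.34 in AUTS2, and all genes together held 1.23. The opposite set gave them from 0 regions at CSMD3 to 13 at TENM3.

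At single gene ends the strongest members stood at genes of several kinds. The highest was at CD300H, an immune receptor gene, with a CTCF fold enrichment of 27.8. SFRP4, which encodes a secreted Wnt antagonist, had a member of 25.9 at chr7:37916448-37917535, its summit at -321 bp from a start. GRIN2B, the gene of a glutamate receptor subunit, had one of 25.1 at chr12:13981968-13982821, with the summit at -161 bp. REC8, the meiotic kleisin of cohesin, had one of 23.2 at chr14:24171550-24172092, its summit at -160 bp. TDRD5, a gene of the male germ line, had one of 22.9. The other 5 of the 10 strongest were CNKSR1, C5orf46, GIMAP2, CCER1 and KL, from 21.5 to 24.7.

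Genes were then taken from lists by role. Over all protein-coding genes, 1680 (8.41%) had a member at an end, and 5993 (30.0%) had more members than regions of the opposite set assigned. Because members by rule lie in H1-only open chromatin, genes with ends open in H1 alone must lead here. They carried a member at an end in 735 of 1655 cases, and genes with ends open in both lines in 925 of 14081, which is a description of the rule. The lists were drawn up with earlier results of these data known, so their counts are a description and no independent evidence of a direction.

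Epithelial junction genes had members at their ends most often. Embryonic stem cells grow as an epithelial sheet held by these proteins, and fibroblasts do not. Of 22 genes, 13 (59.1%) had a member at an end, and 10 of the 11 genes whose ends were open in H1 alone were among them. CLDN6, a claudin of tight junctions, had the strongest, at chr16:3017889-3018533 with a CTCF fold enrichment of 13.4 and an H1 ATAC fold enrichment of 6.32. CDH1, which encodes E-cadherin, had one of 8.88, and OVOL2, a repressor of mesenchymal genes, one of 8.45. Claudin 7 (CLDN7) stood at 7.81, EPCAM, an adhesion protein gene, at 6.90, and GRHL2, an epithelial transcription factor gene, at 5.37. Members assigned to the list numbered 36, against 24 regions of the opposite set. They were 32.1% of the 112 hESC-named CTCF regions assigned to these genes, close to the 31.4% in the whole hESC-named list.

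Pluripotency genes came with many members around them and fewer at their ends. Of 28 genes, 26 had an assigned member, 11 (39.3%) had one at an end, and 121 members stood against 19 regions of the opposite set. Members made up 49.6% of the 244 hESC-named CTCF regions assigned to these genes, against 31.4% in the whole hESC-named list. SOX2, a core factor of the stem cell state, had 25 members and 0 opposite regions, all members lying outside the gene and the nearest 1644 bp away. POU5F1 had 2 assigned members and NANOG 1, and neither gene had one at an end. DPPA2, a chromatin factor of early embryos, had a member over its start at chr3:109316385-109316817 with a fold enrichment of 11.2. DPPA3 had one of 12.3 at an end, PRDM14 one of 7.36, LIN28A one of 7.71 and CRIPTO, a NODAL co-receptor gene, one of 6.17. The strongest member assigned to any of the genes was 26.9 at ZFP42, where no member lay closer than 27097 bp to an end.

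Genes of later lineages, which stem cells hold in a poised state, also had members. Of 14 neural progenitor genes 6 (42.9%) had a member at an end, and of 12 endoderm and mesoderm genes 5 (41.7%), against 39.3% of pluripotency genes. With only regions of −log10 q of at least 10 these counts were 2 and 2, while that of pluripotency genes was 8 of 28, and within 500 bp of an end 2 neural progenitor genes had a member. SOX11 had 25 members, OTX2 16, SOX1 9 and PAX6 9, against 0, 0, 0 and 4 opposite regions. These end members were mostly weak, from 2.48 at ZIC2 to 6.50 at HES5. In the endoderm and mesoderm list CER1, a secreted NODAL antagonist, stood apart with 15.3 at chr9:14722632-14723028. FOXA2 had 14 assigned members and 0 opposite regions.

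The next 4 genes show the sequence under a member whose summit lay within 100 bp of a start. They had the highest fold enrichment of such genes in the imprinted, endoderm and mesoderm, epithelial and pluripotency lists, and were chosen after their values were seen. The 120 bases are read on the strand of the gene, and capitals mark CG dinucleotides.
MEST, chr7:130486021-130486140, plus strand: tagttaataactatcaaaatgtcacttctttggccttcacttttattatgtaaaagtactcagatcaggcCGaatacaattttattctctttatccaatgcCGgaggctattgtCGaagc
CER1, chr9:14722767-14722886, minus strand: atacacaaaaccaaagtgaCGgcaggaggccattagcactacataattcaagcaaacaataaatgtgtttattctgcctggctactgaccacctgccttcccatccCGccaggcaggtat
CLDN6, chr16:3018167-3018286, minus strand: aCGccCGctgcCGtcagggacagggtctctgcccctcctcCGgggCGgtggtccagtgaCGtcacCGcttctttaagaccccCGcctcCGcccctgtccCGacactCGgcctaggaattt
DPPA2, chr3:109316489-109316608, minus strand: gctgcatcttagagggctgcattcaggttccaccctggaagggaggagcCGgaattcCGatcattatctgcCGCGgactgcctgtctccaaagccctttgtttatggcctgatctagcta

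These stretches held 3 CG dinucleotides at MEST, 2 at CER1, 11 at CLDN6 and 4 at DPPA2. Neither core was found in the 300 bases of any of these promoters. In all, 13 listed genes had a member summit within 100 bp of a start, 10 of them upstream, and 1 of the 13, MARVELD2 at epithelial tricellular junctions, held the core in its promoter.

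Of 18 imprinted genes, where CTCF is known to act at parent-specific sites, 6 (33.3%) had a member at an end. Members made up 30.1% of the 123 hESC-named CTCF regions assigned to these genes, close to the 31.4% in the whole hESC-named list. MEST stood at 20.2 over a start, L3MBTL1 at 17.9 and SNRPN at 10.9. NDN had no member at an end, but the strongest member of the imprinted list, 29.5, was assigned to it. The listed imprinted transcripts H19, KCNQ1OT1 and MEG3 are not protein-coding and were not counted.

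In the clustered protocadherins, whose promoter choice in neurons depends on CTCF, members were a small part of the CTCF, 12 of 72 assigned regions (16.7%). A hESC-named CTCF region lay at an end of 52 of 53 genes, and a member at an end of 5. These were PCDHA10 at 14.3, PCDHA13 at 14.6, PCDHAC2 at 6.73, PCDHB1 at 9.66 and PCDHGC4 at 17.8, thus 3 of 15 alpha, 1 of 16 beta and 1 of 22 gamma genes. Gene ends of the cluster lie close together, and genes of the alpha and gamma groups share their last exons, so these genes are not independent. Among HOX genes, the body axis regulators, 10 of 39 had a member at an end, from 2.67 at HOXD11 to 13.4 at HOXD10.

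The long neuronal adhesion genes held 553 members against 38 opposite regions, and 19 of 20 genes had more members. The count of members was 262 with only regions of −log10 q of at least 10, where 3 genes had one at an end, and 59 within 50 kb of a gene end. Members made up 61.3% of the hESC-named CTCF regions assigned to them. Their median length was 1153 kb. At their ends 8 of 20 had a member, the strongest being CNTN1, a contactin of neurons, at 9.29. Away from the ends assigned members were stronger, up to 26.9 at CDH8, 26.7 at LRP1B and 26.1 at CSMD1. GPC5, a glypican gene, had the highest median of the list, 12.4 over 33 members.

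Fibroblast matrix genes had fewer members than opposite regions, 43 against 168, with 19 of 26 genes having fewer and 2 more. Members made up 23.6% of the 182 hESC-named CTCF regions assigned to these genes, against 31.4% in the whole hESC-named list. The share of fibroblast matrix genes with a member at an end was close to that of all protein-coding genes, 2 of 26 (7.69%). FBN1 (fibrillin) stood at 7.37 and TAGLN, to which 0 members were assigned, at 14.4. COL6A3, a collagen gene, had 5 members and 22 opposite regions. Of 18 mesenchymal transcription factor genes 0 had a member at an end, while 16 had an assigned member. They had 60 members against 121 opposite regions, although OSR1 had 9 against 3 and MEOX2 7 against 1. The 60 members were 27.3% of the 220 hESC-named CTCF regions assigned to these genes. Their median was 3 members per gene, against 2.5 for pluripotency genes. Of the genes for CTCF and cohesin themselves 0 of 17 had a member at an end, and of housekeeping genes 1 of 15. Every gene of these 3 lists (mesenchymal factors, CTCF and cohesin, housekeeping) had open ends in both lines. Germline genes had 2 of 20.

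**Figure D5:**
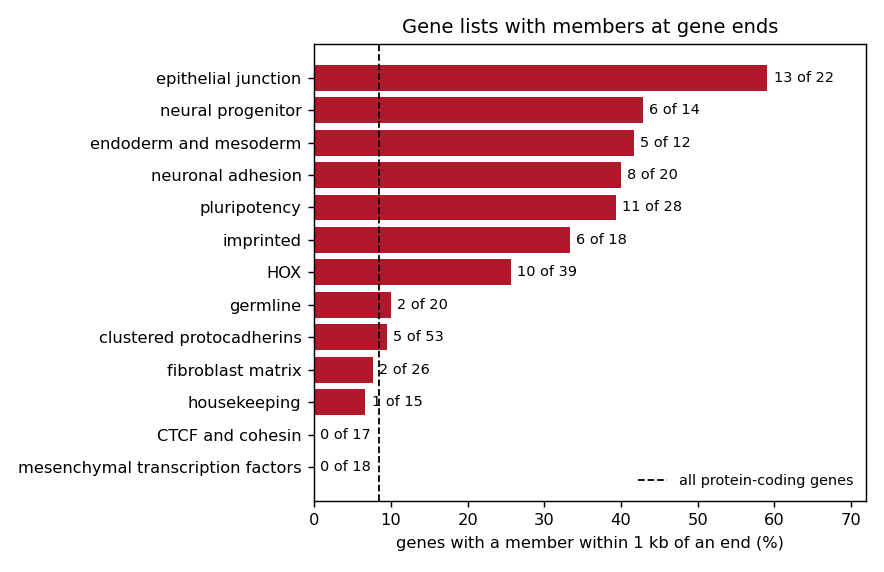
Share of genes (percent) of each list with a member within 1 kb of an end, with the counts beside each bar. The dashed line marks all protein-coding genes at 8.41%. Epithelial junction genes reach 59.1%, and fibroblast matrix genes lie at 7.69%.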

How the data were processed

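Peaks of the 4 deposited lists on chromosomes 1 to 22 and X (build hg38) were used as deposited. BWA, MACS2 and bedtools are named in the submitters' processing notes, and their versions and settings were not given in the sources used here. Every deposited list gave a score per peak, which was not used, a fold enrichment (the authors' ratio over background), a −log10 q-value and a summit offset. These are the authors' values and were used only within a list. Each list is 1 call for its group, the per-library depth is unknown, and shares carry Wilson 95% intervals, which cover counting error only.

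Overlap meant at least 1 bp. Genes were RefSeq genes of GRCh38.p14 (19970 protein-coding, 18177 lncRNA). A region counted as at a gene end or inside a gene when any of its bases overlapped the end window or the gene. The nearest gene and the distances to gene ends and starts were taken from the CTCF summit. A member at the end of a gene could therefore be assigned to another gene, as at TAGLN and HOXD11. Members, comparison classes and gene lists were chosen with earlier results of these data known. The text names the 10 strongest members, the 10 genes with most members, the 10 strongest gene ends, 3 windows, and list genes with a member at an end or at least 5 assigned. POU5F1 and NANOG are named besides these, for contrast. Single values of some genes that this rule names are left out. Python 3.11.15, pandas 2.3.3 and bedtools 2.31.1 were used, and the overlap, distance and motif steps were tested on simulated data.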

Additional observations from a re-analysis of the deposited data

Results flagged for a closer look

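Outside chromosomes 1 to 22 and X, the hESC-named CTCF list held 259 regions, and 47 of them met the rule for members. They were set aside because the lists were compared only on the chromosomes used, and no control level was available for them.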

How the results depend on the processing

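No paired analysis was possible because each list was 1 call with no values per library, and for the same reason no library could be left out. The share of the list that were members was 24.1% when overlap needed 50% of the region, 26.0% with only regions of −log10 q of at least 10 in all 4 lists, 29.7% with lists cut to equal numbers, 34.2% with 500 bp around each summit and 29.3% with a gap of 500 bp to HFFc6 regions. The share at gene ends was 6.22% with a window of 500 bp and 13.6% with 2 kb, and 10.1, 9.55, 11.3 and 8.27% under the 50% overlap, the q limit, the 500 bp summit window and the 500 bp gap. It stayed below that of stem-list-only regions open in both lines in each of these rule settings. Median fold enrichment was 5.77, 9.62, 7.22 and 5.80 under the 50% overlap, q limit, equal numbers and summit window, and the median summit distance was 54 bp under the 50% overlap and 45 bp under the q limit. Members with another member near numbered 13.6% under the q limit, 13.5% within 5 kb and 44.5% within 20 kb. Under the q limit, 932 genes had a member at an end. The looser core gave 13.3% of promoters.

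Members per gene list under the q limit numbered 56 (pluripotency), 52 (neural progenitor), 21 (endoderm and mesoderm), 18 (epithelial), 22 (fibroblast matrix), 20 (mesenchymal), 7 (HOX), 17 (imprinted), 12 (germline), 262 (neuronal adhesion), 6 (CTCF and cohesin) and 3 (housekeeping). Counted within 50 kb of an end, once for each gene, they numbered 200 (protocadherins), 52 (neural progenitor), 27 (endoderm and mesoderm), 27 (mesenchymal), 181 (HOX), 59 (neuronal adhesion) and 15 (housekeeping). For genes with a member at an end, alternatives were added after seeing the data. The q limit gave 2 neural progenitor, 2 endoderm and mesoderm, 3 HOX, 3 imprinted, 0 germline, 3 neuronal adhesion and 0 housekeeping genes. A window of 500 bp gave 2 neural progenitor, 0 fibroblast matrix and 0 housekeeping genes, and one of 2 kb gave 19 pluripotency genes. Epithelial junction genes with a member at an end numbered 10 to 13 of 22 under these 3 settings. Read depth per library, which decides what a peak list can miss, is unknown.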

Other observations

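MicroRNA genes were looked up after the other results had been seen. Of 1558 RefSeq miRNA hairpins on the chromosomes used, members overlapped 16, and 216 (13.9%) had a member within 5 kb. The overlapped hairpins included MIR202, known from the gonads, with a member of CTCF fold enrichment 17.4, MIR184 with 14.7 and MIR197 with 12.6. The MIR302 cluster, the leading miRNA family of human embryonic stem cells, had its nearest member 1473 bp from MIR367, with a fold enrichment of 4.70 and an H1 ATAC fold enrichment of 8.93. MIR372 of the second stem cell cluster, on chromosome 19, had one of 13.9 at 4671 bp. MIR200C, an epithelial miRNA, had one of 4.17 at 415 bp. No test was made of these distances.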
